A study of Mus musculus with 44 samples.

Results

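These data describe the livers of Mlkl knockout mice fed a diet without choline that was either high in fat (CD-HFD) or low in fat (CD-LFD). The libraries were taken by their labels, as genotype MLKL KO (also written Mlkl-/-) with the diet CD-HFD or CD-LFD, which gave 7 of the 44 RNA sequencing libraries of the series. Of these, 3 were CD-HFD (replicates 1, 2 and 4) and 4 were CD-LFD (replicates 1, 2, 3 and 4). Both groups are labelled as the same Mlkl knockout, both were started on their diet at 2 months of age and both were fed for 6 months with choline-deficient food, so the labelled difference between them is the fat content of the diet. How the Mlkl allele was made, the strain background and the sex of the mice are not given in the sources used here. The Y-linked gene Ddx3y was at 33.4 to 53.4 CPM in the 7 libraries and Xist, the RNA that silences an X chromosome in females, at 0.133 to 1.12 CPM. The series also holds wild type (WT) and Ripk3 knockout (Ripk3-/-, written Ripk3KO) mice on the same diets, and mice of all 3 genotypes on a normal chow called the control diet. The series as a whole examines how necroptosis bears on liver inflammation and hepatocellular carcinoma.

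MLKL is the pore-forming executioner of necroptosis, a lytic form of programmed cell death in which the kinase RIPK3 phosphorylates MLKL, which then inserts into and breaks the plasma membrane. Choline is needed to make phosphatidylcholine, the phospholipid that coats the very low density lipoproteins with which hepatocytes export fat, so a diet without choline makes the liver store triglyceride. Livers loaded with fat in this way become inflamed, gather macrophages that take up lipid and dead cells, lay down collagen and can go on to form tumours.

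The 7 libraries held between 4983234 and 12471844 counted reads and detected between 18951 and 20814 genes. Values are counts scaled to library size in CPM, with TMM correction, listed for CD-HFD in the order replicate 1, 2 and 4 and for CD-LFD in the order replicate 1, 2, 3 and 4, and a log2 change is CD-HFD minus CD-LFD. The TMM factors separated the groups, at 1.15 to 1.27 on CD-HFD and 0.911 to 0.951 on CD-LFD, and so did the share of reads in the 20 most abundant genes, at 20.6% to 22.8% on CD-HFD and 25.8% to 27.5% on CD-LFD. The clock genes Arntl and Dbp, whose ratio turns over with the time of day, had a log2 ratio of -5.93 to -5.09 on CD-HFD and -6.70 to -5.73 on CD-LFD, against -7.47 to 2.63 over the whole series, a narrow stretch of that range. The groups overlapped through the library labelled CD-HFD replicate 1 at -5.93, and the other CD-HFD libraries, at -5.29 and -5.09, lay above every CD-LFD library. CD-LFD replicate 4 stood apart from its group in many liver genes, among them Cyp7a1, Socs2, Igf1 and Igfals, and without it 2779 genes were called in place of the 3523 given below. The labels do not say whether replicates are separate mice. In the main test the p-values measure only the spread between libraries, estimated over all 44 of the series and not from these 7 alone. Fitted on the compared groups alone, the same test called 4490 of 13129 genes.

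Mlkl, the targeted gene, gave reads in all 7 libraries labelled Mlkl knockout on these diets. Its transcript stood at 12.5, 4.82 and 2.79 CPM on CD-HFD and at 4.15, 2.98, 3.36 and 3.42 CPM on CD-LFD, with a control diet mean of 2.26 ± 0.639 CPM (SD, n = 6). The library labelled CD-HFD replicate 1 was far above the other 6 and lay inside the range of WT livers on CD-LFD, which was 9.84 to 14.5 CPM, and below that of WT livers on CD-HFD, which was 14.3 to 17.6 CPM, while the other 2 CD-HFD libraries lay close to the CD-LFD libraries. By edgeR's quasi-likelihood test with Benjamini-Hochberg adjustment over all genes, Mlkl was called higher on CD-HFD (log2 change 0.90, SE 0.323, adjusted p = 0.037), and without that library the change was 0.12 (adjusted p = 0.842). Whether these reads come from a part of the gene outside the deletion was not tested. A mix-up of samples or genotypes was not tested. Because of the Mlkl level of this library, counts of called genes that move by more than 1.5 times without it are given both ways. The same was done for counts that move as much without CD-HFD replicate 4. Ripk3, the kinase upstream of MLKL, was at 1.74, 3.26 and 2.66 CPM on CD-HFD and 1.86, 1.93, 1.76 and 2.08 CPM on CD-LFD, values that overlapped (log2 change 0.43, SE 0.548, adjusted p = 0.611).

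**Figure D1:**
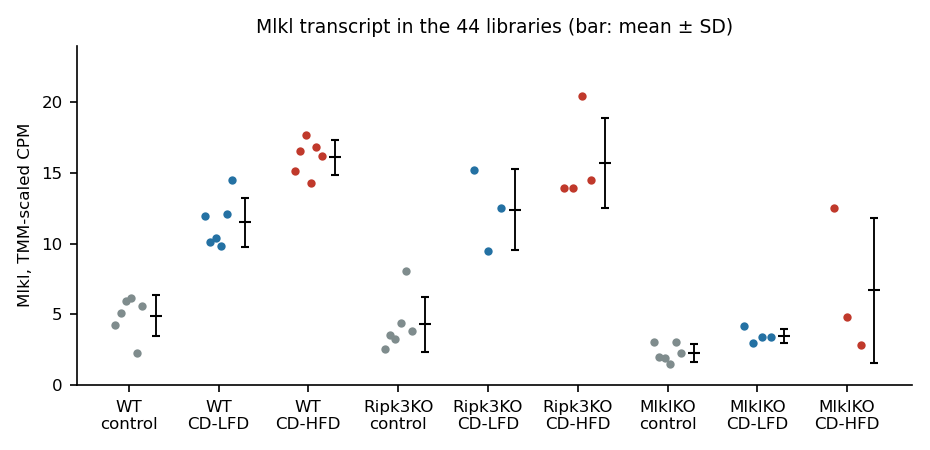
Mlkl transcript in each of the 44 libraries (points, TMM-scaled CPM on a linear axis) by genotype and diet, with the group mean and SD as bars beside the points. The library labelled MlklKO CD-HFD replicate 1 sits at 12.5 CPM, inside the WT CD-LFD range of 9.84 to 14.5 and below the WT CD-HFD range of 14.3 to 17.6, while all other MlklKO libraries are below it.

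Between the diets, a large part of the liver transcriptome differed in mice labelled Mlkl knockout. Of 14862 genes tested, 3523 passed an adjusted p of 0.05 in edgeR's quasi-likelihood test, which is 23.7%, with 2164 higher on CD-HFD (14.6%) and 1359 lower (9.14%). Among called genes that changed by at least 2-fold, 1709 rose and 481 fell. The groups did not overlap in 3318 of the called genes, against a background of 37.4% of all genes tested whose groups did not overlap in either direction. Without the library labelled CD-HFD replicate 1 the test called 3068 genes, 2854 of which were among the 3523 (81.0%), and without CD-HFD replicate 4 it called 1935, so that library alone moves the count by more than 1.5 times. The median change over all genes was 0.03 under TMM scaling and 0.41 when libraries were scaled by their totals alone, which turned the split into 4770 higher and 388 lower of 5158 calls, so every change below is relative to the bulk of genes under TMM, and with total scaling most rising lists have more members called higher and falling lists fewer called lower.

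The largest rises, among genes with a mean log2 CPM of at least 1, came from developmental, matrix-cutting and macrophage genes. Igdcc4, a cell surface protein of the immunoglobulin superfamily, had 6.08, 19.1 and 15.4 CPM on CD-HFD and 0.0847, 0.595, 0.320 and 1.04 CPM on CD-LFD (log2 change 4.82, SE 0.601, adjusted p = 2.88e-07). H19, an imprinted non-coding RNA that is abundant in fetal liver and nearly silent in the adult, had 8.17, 19.8 and 11.6 CPM on CD-HFD and 0.847, 0.744, 0 and 0.595 CPM on CD-LFD (log2 change 4.46, SE 0.958, adjusted p = 0.000636). Both genes were lowest on CD-HFD in the library labelled replicate 1, and for both even that value was several times the highest CD-LFD value. Mmp7, a secreted protease of epithelial cells known as matrilysin, stood at 23.1, 65.5 and 50.7 CPM on CD-HFD against 4.06, 2.83, 1.60 and 2.83 CPM on CD-LFD, with 0.595 ± 0.443 CPM on the control diet (SD, n = 6). A further 8 of the 12 largest rises by the same rule were Mmp12, Gpnmb, Sema5a, Fbn2, Tspan8, Rasal1, Cpxm2 and Scube3, whose log2 changes ran from 3.66 for Mmp12 to 3.33 for Scube3. Fbn2, which encodes the fibrillin of developing tissue, was at 5.56, 16.3 and 8.92 CPM on CD-HFD and 0.847, 1.19, 0.480 and 1.19 CPM on CD-LFD.

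The largest falls came mostly from genes that male hepatocytes make in quantity. Hsd3b5, a male-specific liver steroid dehydrogenase, was at 102, 67.7, 123 and 27.8 CPM on CD-LFD and 1.04, 0.130 and 0.532 CPM on CD-HFD, with 149 ± 95.8 CPM on the control diet (SD, n = 6). Every CD-HFD library was far below every CD-LFD library. Its log2 change was -7.20 (SE 1.07, adjusted p = 4.67e-06), the largest of either sign by the rule used. Of the 12 largest falls, 7 were major urinary protein genes (Mup7, Mup12, Mup21, Mup11, Mup14, Mup17 and Mup1), which encode pheromone-carrying proteins that male livers secrete. The other 5 were Hsd3b5, Chrna4, Elovl3, Scd1 and Susd4. Chrna4, a nicotinic acetylcholine receptor subunit, was at 28.2, 8.33, 21.0 and 3.57 CPM on CD-LFD, a wide spread in which replicate 4 was lowest, and at 1.39, 0.130 and 0.266 CPM on CD-HFD. Elovl3, an elongase of very long chain fatty acids, was at 81.8, 50, 99.8 and 10.4 CPM on CD-LFD and 1.04, 6.77 and 3.06 CPM on CD-HFD, with CD-LFD replicate 4 again closest to the CD-HFD libraries. Of the 12 largest rises and 12 largest falls, 24 stayed called without the library labelled CD-HFD replicate 1, 23 without CD-HFD replicate 4, and 22 under all 15 alternatives, the exceptions being Chrna4 and Mup17.

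**Figure D2:**
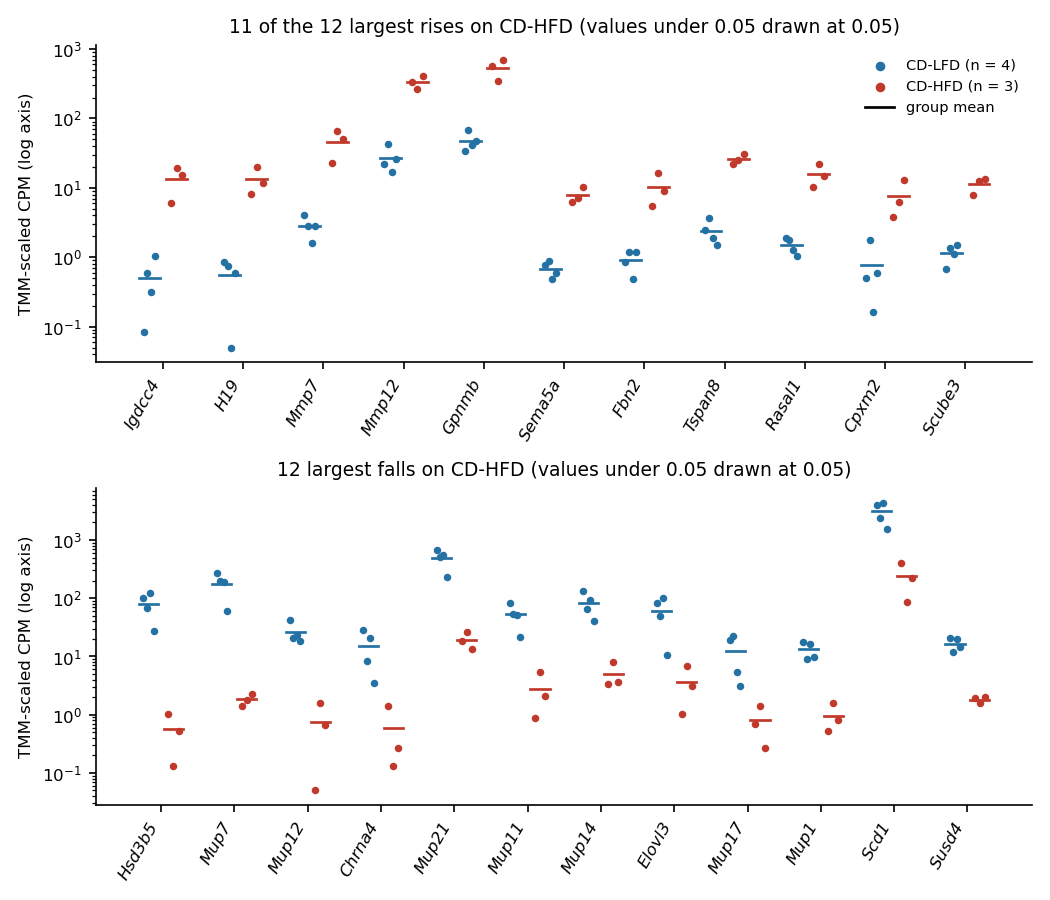
CPM in each of the 7 libraries (points; log axis, so values under 0.05 are drawn at 0.05) with group means (bars) for 11 of the 12 genes with the largest rise and the 12 with the largest fall among genes that passed an adjusted p of 0.05, had no overlap between groups and averaged at least 1 on the log2 CPM scale. By this rule, in each gene drawn every CD-HFD point lies on 1 side of every CD-LFD point.

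Lipid-associated macrophages, cells that ring dying fat-laden hepatocytes and digest their lipid, are marked by lysosomal, lipid-handling and matrix genes. All 14 of their markers were tested and all 14 rose, with a median log2 change of 2.26 against 0.03 over all genes and with no overlap between the groups, where 14.6% of all genes were called higher and 20.8% were higher without overlap. Mmp12, the macrophage elastase, was at 339.8, 266 and 409.7 CPM on CD-HFD and 22.1, 42.1, 17 and 26.3 CPM on CD-LFD, and 0.357 ± 0.151 CPM on the control diet (SD, n = 6). Its log2 change was 3.66 (SE 0.309, adjusted p = 8.44e-11). Gpnmb, a lysosomal membrane glycoprotein, was at 567, 345 and 697 CPM on CD-HFD and 33.9, 68.3, 41.8 and 46.7 CPM on CD-LFD, with the control diet at 0.262 ± 0.311 CPM (SD, n = 6). Gpnmb took 3 separate levels, with the chow mean lowest, every CD-LFD library between, and every CD-HFD library highest. Ctsk, a collagen-digesting lysosomal protease, was at 15.3, 18.0 and 18.8 CPM and 3.39, 3.57, 1.44 and 2.97 CPM. Spp1, which encodes the secreted matrix protein osteopontin, was at 657, 932 and 827 CPM on CD-HFD and 117, 186, 98.3 and 146 CPM on CD-LFD (log2 change 2.56, SE 0.423, adjusted p = 2.25e-05). For Ctsk and Spp1 too, the lowest CD-HFD library was far above the highest CD-LFD library. Trem2, the lipid-sensing receptor that defines the cell state, was at 64.3, 75.2 and 83.2 CPM and 14.0, 19.3, 9.93 and 11.2 CPM, a log2 change of 2.45 (SE 0.287, adjusted p = 9.85e-08). The smallest rise was that of the lysosomal protease Ctsd (log2 change 1.17, SE 0.193, adjusted p = 2.24e-05). Fabp5, a fatty acid binding protein, was at 69.0, 81.9 and 84.9 CPM on CD-HFD and 21.0, 15.8, 22.3 and 19.3 CPM on CD-LFD, and its control diet mean of 197 ± 144 CPM (SD, n = 6) was above both. Summed over the 14 markers, CD-HFD livers held 3416 to 3980 CPM, CD-LFD livers 688 to 1012 CPM and control diet livers 393 to 812 CPM. All 14 were called without the library labelled CD-HFD replicate 1, and all 14 without CD-HFD replicate 4. In bulk tissue, more cells of a type and more RNA per cell cannot be told apart, here or in any list below.

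**Figure D3:**
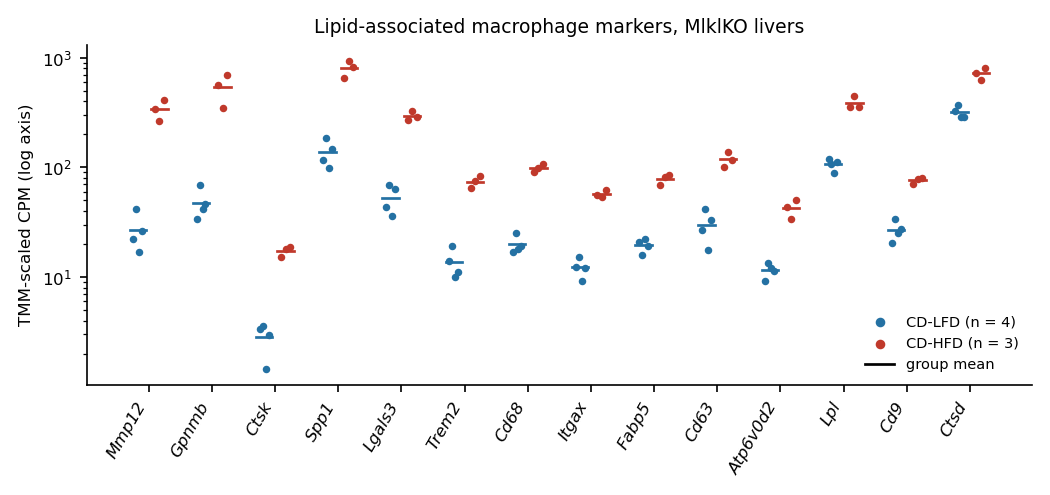
CPM (log axis) of the 14 lipid-associated macrophage markers in each CD-LFD (n = 4) and CD-HFD (n = 3) library of MlklKO mice, with group means as bars, ordered by log2 change from Mmp12 (3.66) to Ctsd (1.17). The groups do not overlap for any of the 14.

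The sequences just upstream of 3 of the rising genes are shown because they hold the same short string. Windows of 130 bases that end at the base before the RefSeq transcription start (GRCm38.p6, read on the strand of the gene) are given for Mmp7, for the macrophage integrin Itgax and for the macrophage glycoprotein Cd68, with matches to TGANTCA, the palindromic element bound by AP-1 family factors, in capitals. For Mmp7 the upstream one of 2 listed starts is shown.
Mmp7 (chr9:7691960-7692089, plus strand): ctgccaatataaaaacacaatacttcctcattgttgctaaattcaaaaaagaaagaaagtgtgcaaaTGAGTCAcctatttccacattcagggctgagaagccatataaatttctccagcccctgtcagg
Itgax (chr7:128129420-128129549, plus strand): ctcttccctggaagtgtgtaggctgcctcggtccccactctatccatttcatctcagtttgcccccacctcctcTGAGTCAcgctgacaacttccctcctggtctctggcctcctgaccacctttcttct
Cd68 (chr11:69666171-69666300, minus strand): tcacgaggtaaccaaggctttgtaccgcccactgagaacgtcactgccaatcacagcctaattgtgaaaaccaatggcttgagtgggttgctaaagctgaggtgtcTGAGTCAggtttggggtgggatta
The string lies 63, 56 and 24 bases upstream of the start in these 3 windows. On either strand it was found in the 250 bases upstream of a start in 7.82% of the 27025 genes of the RefSeq promoter table, in 5.91% of the 10926 matched genes that were tested, in 7.34% of the 1635 matched genes called higher and in 6.32% of the 1013 matched genes called lower. Of the 14 macrophage markers 11 had a window, and 4 of these held the string. The 3 windows were picked after their matches were seen, and a match describes letters only.

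Markers of other immune cells moved less evenly. Resident Kupffer cells, the liver's own macrophages, had 0 of 9 tested markers called by edgeR (1 at an unadjusted p under 0.05, 1 called by DESeq2, 0 by limma-voom and 2 higher when scaled by library total), with a median log2 change of 0.16. Timd4, the phosphatidylserine receptor that marks long-lived Kupffer cells, was at 0.174, 0 and 0 CPM on CD-HFD and 0.423, 0.595, 0.320 and 0 CPM on CD-LFD, near the counting floor in both, against 2.75 ± 1.53 CPM on the control diet (SD, n = 6). Clec4f, the lectin most specific to Kupffer cells, was at 62.8, 44.2 and 28.5 CPM and 60.4, 60.7, 51.7 and 15.3 CPM, so the groups overlapped (log2 change -0.07, SE 0.562, adjusted p = 0.95). Of 8 tested monocyte and neutrophil genes, 4 rose and 0 fell, against 14.6% of all genes called higher, with a median of 1.47, and 6 were called when scaled by library total. Itgam, the CD11b integrin chain, was at 10.6, 16.8 and 12.2 CPM on CD-HFD against 1.1, 3.12, 1.44 and 1.49 CPM on CD-LFD (log2 change 2.91, SE 0.365, adjusted p = 3e-07). Ccr2, the receptor that brings monocytes out of the blood, was at 16.3, 19.5 and 22.2 CPM and 7.03, 6.40, 7.53 and 7.14 CPM (log2 change 1.46, SE 0.378, adjusted p = 0.00387). The calprotectin genes S100a8 and S100a9 also rose, at log2 changes of 2.34 and 2.22, from levels below 2 CPM, and both calls were lost without CD-HFD replicate 2, where the changes were 1.48 (adjusted p = 0.176) and 1.62 (adjusted p = 0.147) by edgeR.

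T cell and cytotoxic lymphocyte genes had 3 of 14 tested members called higher, against 14.6% of all genes, and 7 when scaled by library total, with a median of 1.13. Cxcr6, a chemokine receptor of liver-resident T cells, was at 1.56, 1.95 and 4.92 CPM on CD-HFD and 0.931, 0.893, 0.961 and 0.446 CPM on CD-LFD. Cd4 was at 1.22, 1.56 and 4.13 CPM and 0.677, 0.893, 0.801 and 0.297 CPM, and Pdcd1, which encodes the inhibitory receptor PD-1, was at 0.869, 1.3 and 4.53 CPM and 0.677, 0.595, 0.640 and 0.297 CPM. In each of these 3 genes CD-HFD replicate 4 was far above the other 2 CD-HFD libraries. Cd8a showed the same library standing alone, with 2.78, 3.13 and 11.8 CPM on CD-HFD and 3.73, 1.04, 5.12 and 1.78 CPM on CD-LFD, and was not called (log2 change 1.02, SE 0.583, adjusted p = 0.208). Without CD-HFD replicate 4, edgeR called 0 of the T cell genes, with 0 at an unadjusted p under 0.05, and without the library labelled CD-HFD replicate 1 it called 5. B and plasma cell genes had 0 of 8 called by edgeR, DESeq2 or limma-voom, 0 at an unadjusted p under 0.05 and 1 called higher when scaled by library total, with a median of 0.81. MHC class II genes, which present antigen on macrophages, dendritic cells and B cells, were higher without overlap in 7 of 7 members, against 20.8% of all genes tested, and 2 of them, H2-DMb1 and H2-Ab1, passed the edgeR test, against 14.6% of all genes, and all 7 did when scaled by library total. H2-Ab1 was at 106, 109 and 141 CPM on CD-HFD and 73.2, 64.4, 86.8 and 39.0 CPM on CD-LFD, and its CD-LFD replicate 4 was well below the rest. Neither gene was called without CD-HFD replicate 4.

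Chemokine genes had 6 of 17 tested members higher and 0 lower, against 14.6% of all genes called higher, with a median of 1.22. With either CD-HFD replicate 1 or replicate 4 left out 4 were called, and scaled by library total 9. Ccl6, a macrophage chemokine, was at 36.3, 17.5 and 37.1 CPM on CD-HFD and 4.49, 7.29, 8.33 and 4.01 CPM on CD-LFD (log2 change 2.34, SE 0.423, adjusted p = 7.85e-05). Cx3cl1, the membrane-bound chemokine fractalkine, was at 9.91, 11.7 and 16.8 CPM and 3.13, 2.23, 3.36 and 1.49 CPM (log2 change 2.31, SE 0.408, adjusted p = 5.55e-05). Ccl22, Cxcl14, Cxcl16 and Ccl2 were the others called. Cxcl9 and Cxcl10, the ligands induced by interferon-gamma, had log2 changes of -0.08 and 0.19 and overlapped between groups. The interferon-stimulated genes as a list had 2 of 15 called higher (Ifit2 and Oasl2), below the 14.6% of all genes, 4 when scaled by library total, and a median of 0.18. Without CD-HFD replicate 4, edgeR called 0 of these 15, with 2 at an unadjusted p under 0.05, and without the library labelled CD-HFD replicate 1 it called 1.

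Extracellular matrix genes rose as a block. Of 20 tested, 18 were called higher and 0 lower, with a median log2 change of 1.78, and the groups did not overlap in those 18, against 14.6% of all genes called higher and 20.8% higher without overlap. Col1a1, a chain of the fibre-forming collagen of scar tissue, was at 176, 274 and 290.3 CPM on CD-HFD and 52.5, 65.0, 48.8 and 25.9 CPM on CD-LFD, with 12.5 ± 5.93 CPM on the control diet (SD, n = 6). Its log2 change was 2.36 (SE 0.392, adjusted p = 2.44e-05). Fbn1, a microfibril protein, was at 16.7, 15.6 and 26.2 CPM and 4.49, 2.08, 4.0 and 1.64 CPM (log2 change 2.64, SE 0.439, adjusted p = 2.44e-05). Lox, the enzyme that crosslinks collagen, was at 2.61, 4.30 and 8.12 CPM and 1.1, 0.744, 0.801 and 0.446 CPM, a low level at which replicate 4 was highest on CD-HFD. Col5a2 was at 30.2, 33.2 and 52.6 CPM and 7.53, 7.89, 5.92 and 3.42 CPM (log2 change 2.63, SE 0.349, adjusted p = 7.39e-07). In all 4 of these genes CD-LFD replicate 4 was the lowest library. Fn1, the fibronectin gene that hepatocytes themselves express strongly, was not called, at 1231, 734 and 1015 CPM and 753, 777, 1100.1 and 731 CPM (adjusted p = 0.685), and Mmp13 was not called (adjusted p = 0.0713). With either CD-HFD replicate 1 or replicate 4 left out, 17 of the 20 were called.

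Stellate cell and myofibroblast markers, from the cells that make most liver collagen, had 5 of 11 tested members higher, against 14.6% of all genes, and 7 when scaled by library total. Lum, a collagen-binding proteoglycan, was at 74.4, 72.3 and 109 CPM on CD-HFD and 12.4, 23.4, 11.4 and 6.84 CPM on CD-LFD (log2 change 2.66, SE 0.446, adjusted p = 2.85e-05). Pdgfrb, the growth factor receptor of stellate cells, was at 27.3, 43.8 and 44.1 CPM and 17.1, 19.5, 16.5 and 11.3 CPM (log2 change 1.25, SE 0.318, adjusted p = 0.00328). Rgs5, Thy1 and Dcn were the other members called, and without CD-HFD replicate 4 the list had 3 called, with Thy1 and Dcn not among them. Acta2, the smooth muscle actin used to mark activated stellate cells, was at 5.04, 7.30 and 8.78 CPM and 4.91, 4.61, 4.32 and 4.31 CPM and did not pass (log2 change 0.63, SE 0.44, adjusted p = 0.313), and Lrat, the vitamin A storing enzyme of quiescent stellate cells, had a log2 change of 0.02. Endothelial genes were called in part, with 3 of 9 sinusoidal genes (Cdh5, Stab1 and Fcgr2b) and 3 of 5 capillary genes (Esm1, Cd34 and Ednrb) higher, against 14.6% of all genes, and 0 of either list lower. Scaled by library total the counts were 8 and 5. Cd34, a surface protein of continuous endothelium, was at 7.65, 9.38 and 14.6 CPM on CD-HFD and 3.3, 4.31, 1.28 and 2.53 CPM on CD-LFD (log2 change 1.87, SE 0.466, adjusted p = 0.00285).

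Bile duct and ductular genes rose almost throughout, with 9 of 11 tested called higher, against 14.6% of all genes, 0 lower and a median log2 change of 2.38. Epcam, the adhesion molecule of bile duct and progenitor cells, was at 21.9, 36.6 and 34.3 CPM on CD-HFD and 3.81, 6.84, 2.24 and 6.84 CPM on CD-LFD (log2 change 2.66, SE 0.547, adjusted p = 0.000403). Krt19, the duct keratin, was at 10.1, 23.4 and 16.8 CPM and 2.71, 3.42, 2.08 and 3.87 CPM (log2 change 2.48, SE 0.462, adjusted p = 0.000119). In both, the library labelled CD-HFD replicate 1 was the lowest of its group and lay above all 4 CD-LFD libraries. Cd24a was at 31.3, 24.9 and 31.9 CPM and 4.40, 7.44, 4.80 and 5.06 CPM, and the chloride channel Cftr was at 2.96, 4.69 and 2.93 CPM and 0.423, 0.149, 0 and 0.297 CPM. Sox9, the duct transcription factor, rose by a smaller step, from 15.7, 12.9, 14.7 and 14.7 CPM to 25.6, 39.9 and 26.4 CPM (log2 change 1.07, SE 0.306, adjusted p = 0.00877). The summed level of the list was 149 to 214 CPM on CD-HFD and 59.6 to 62.2 CPM on CD-LFD, and 9 of 11 were also called with CD-HFD replicate 1 or replicate 4 left out.

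Oncofetal and liver tumour markers, genes that fetal liver and hepatocellular carcinoma share, had 8 of 13 tested members higher and 0 lower, against 14.6% of all genes called higher, with a median of 1.79. Beside H19, these included Tspan8, a tetraspanin, at 21.7, 25.1 and 30.5 CPM on CD-HFD and 2.46, 3.72, 1.92 and 1.49 CPM on CD-LFD (log2 change 3.42, SE 0.468, adjusted p = 1.22e-06). Golm1, a Golgi protein used as a serum marker of liver cancer, was at 13.9, 5.99 and 14.6 CPM and 2.12, 2.08, 2.56 and 1.19 CPM (log2 change 2.52, SE 0.566, adjusted p = 0.00103). Akr1c18 was at 1.56, 3.91 and 1.06 CPM and 0.169, 0.298, 0.480 and 0.743 CPM. The groups did not overlap in these 3 genes, and CD-HFD replicate 2 was the lowest of its group for Golm1 and the highest for Akr1c18. Gpc3, a membrane proteoglycan of fetal liver, passed only narrowly at 0.869, 2.21 and 2.53 CPM and 0.593, 0.744, 0.320 and 0.297 CPM (adjusted p = 0.0406). Afp, alpha-fetoprotein, did not pass, at 7.65, 5.73 and 5.32 CPM and 6.18, 3.42, 6.57 and 5.35 CPM with overlapping groups (log2 change 0.20, SE 0.327, adjusted p = 0.702).

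Cell cycle genes had 11 of 20 tested members higher and 0 lower, against 14.6% of all genes called higher, with a median of 1.09. Mki67, the proliferation antigen Ki-67, was at 20.3, 31.3 and 33.5 CPM on CD-HFD and 8.21, 4.91, 8.33 and 6.54 CPM on CD-LFD, and 1.47 ± 0.579 CPM on the control diet (SD, n = 6). Its log2 change was 2.01 (SE 0.342, adjusted p = 3.31e-05). Top2a, the DNA topoisomerase of dividing cells, was at 9.56, 12.1 and 14.9 CPM and 3.22, 2.68, 2.56 and 2.83 CPM (log2 change 2.10, SE 0.338, adjusted p = 1.57e-05). In both genes the library labelled CD-HFD replicate 1 was the lowest of its group and still above every CD-LFD library. Plk1, a mitotic kinase, was at 3.82, 4.95 and 5.19 CPM and 1.1, 0.298, 0.961 and 0.595 CPM, and Ccnb1, the mitotic cyclin, at 3.13, 6.77 and 7.19 CPM and 2.20, 0.893, 0.961 and 2.08 CPM. Ccnd1, the cyclin of the first growth phase, overlapped between groups at 152, 65.0 and 97.2 CPM and 57.8, 63.2, 73.5 and 67.5 CPM (adjusted p = 0.216), with its highest value in the library labelled CD-HFD replicate 1. The list had 10 members called without that library, 7 without CD-HFD replicate 4 and 15 when scaled by library total.

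Of 16 necroptosis genes, 3 were called higher (Tnfaip3, Birc3 and Mlkl itself) and 0 lower, with a median of 0.33, against 14.6% of all genes called higher, and 7 were called when scaled by library total. Tnfaip3, the A20 enzyme that restrains NF-kappa-B signalling, was at 26.1, 11.3 and 25.7 CPM on CD-HFD and 5.93, 7.14, 6.57 and 6.69 CPM on CD-LFD, with CD-HFD replicate 2 lowest of its group (log2 change 1.68, SE 0.483, adjusted p = 0.0094). Birc3, an inhibitor of apoptosis, was at 22.6, 28.9 and 24.5 CPM and 17.5, 14.3, 21.0 and 14.6 CPM (log2 change 0.59, SE 0.188, adjusted p = 0.0183). Ripk1 and Casp8, the switch between survival, apoptosis and necroptosis, had log2 changes of 0.43 and -0.21 and did not pass. Among 10 pyroptosis and inflammasome genes 3 rose and 1 fell, against 14.6% and 9.14% of all genes, with a median of 1.06, and the groups did not overlap in 9 (7 higher and 2 lower), against 37.4% of all genes. Without CD-HFD replicate 4 the list had 1 called higher and 0 lower, and scaled by library total 8 higher and 0 lower. Those that rose were Nlrc4, Pycard and Casp1, the sensor, adaptor and protease of the inflammasome, and Casp1 was at 8.17, 12 and 10.5 CPM and 5.50, 4.91, 4.80 and 3.87 CPM. Gsdme, a pore-forming gasdermin, fell, from 14.6, 20.7, 19.2 and 20.1 CPM to 12.5, 13.7 and 8.78 CPM (log2 change -0.67, SE 0.227, adjusted p = 0.0267), a call lost without the library labelled CD-HFD replicate 1 and without CD-HFD replicate 4, among 7 of 15 alternatives. Acute phase genes, which hepatocytes make in systemic inflammation, had 2 of 17 called higher, below the 14.6% of all genes, and 1 without either CD-HFD replicate 1 or replicate 4. Lcn2, an iron-siderophore binding protein also made by neutrophils, was at 379, 485 and 320.2 CPM and 81.7, 83.3, 80.9 and 92.3 CPM, and Il1rn, the interleukin-1 receptor antagonist, at 28.5, 39.5 and 33.5 CPM and 11, 13.5, 13.1 and 5.65 CPM. The serum amyloid gene Saa1, whose reads can be shared with Saa2, was at 133, 110.2 and 113 CPM and 116, 139, 104 and 69.9 CPM and did not pass (adjusted p = 0.92).

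Of 10 defining genes of hepatocytes, the liver's main cell type, 5 fell and 0 rose, against 9.14% of all genes called lower, with a median of -0.69, and 3 were called without CD-HFD replicate 4 and 3 with libraries scaled by total alone. Their summed level was 70548 to 94682 CPM on CD-HFD and 133360 to 141870 CPM on CD-LFD, ranges that do not overlap. The part of this lower level of the hepatocyte markers in the falling hepatocyte lists described below was not tested. Fabp1, the liver fatty acid binding protein, was at 5044, 3589, 4486 and 5369 CPM on CD-LFD and 1193, 1744 and 904 CPM on CD-HFD (log2 change -1.85, SE 0.37, adjusted p = 0.000286). Ttr, the thyroid hormone carrier, was at 8692, 8368, 7793 and 8838 CPM and 3141, 3578 and 2469 CPM (log2 change -1.46, SE 0.263, adjusted p = 7.62e-05). Neither gene overlapped between the groups. Serpina1a, an antitrypsin gene with near-identical copies that can share its reads, had a log2 change of -0.85 (SE 0.203, adjusted p = 0.00185). Alb fell by 0.69 (adjusted p = 0.0471), a call that held under 6 of 15 alternatives. The urea cycle enzyme Cps1 overlapped between groups with a log2 change of 0.27, and Tdo2, the tryptophan dioxygenase, had one of 0.02. The transcription factors that define hepatocytes had 1 of 14 called lower, below the 9.14% of all genes, the bile acid receptor gene Nr1h4, while Hnf4a was at 591, 413 and 529 CPM and 577, 634, 615 and 768 CPM (log2 change -0.34, SE 0.25, adjusted p = 0.339).

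The list with the lowest median held genes under the pulsatile male pattern of growth hormone, which acts on hepatocytes through STAT5B. Of 23 tested genes of that axis, 17 fell and 0 rose, with a median log2 change of -2.17, and 19 were lower without overlap between the groups, against 9.14% of all genes called lower and 16.7% lower without overlap. Slco1a1, an organic anion uptake transporter, was at 188, 200.3, 239 and 101 CPM on CD-LFD and 15.6, 20.2 and 26.1 CPM on CD-HFD (log2 change -3.14, SE 0.534, adjusted p = 3.45e-05). Cyp7b1, an oxysterol hydroxylase, was at 209.9, 188, 181 and 134 CPM and 29.4, 37.0 and 33.3 CPM (log2 change -2.42, SE 0.414, adjusted p = 3.72e-05). CD-LFD replicate 4 was the lowest of its group for both and still above every CD-HFD library. Cyp2d9, a male-specific steroid hydroxylase, was at 1302, 913, 1264 and 599.5 CPM and 212, 264 and 201 CPM, a fall of every CD-HFD library below every CD-LFD library. Ghr, the growth hormone receptor, was at 383, 398, 413 and 353 CPM and 259, 129 and 175 CPM (log2 change -1.04, SE 0.239, adjusted p = 0.00129). Igf1, the main hormone that growth hormone induces in liver, was at 542, 578, 485 and 1052 CPM and 419, 369.9 and 359 CPM (log2 change -0.80, SE 0.242, adjusted p = 0.0137), and with CD-LFD replicate 4, its highest library, left out it was not called. Stat5b itself did not pass, at 41.2, 47.0, 40.7 and 29.7 CPM and 44.3, 41.3 and 49.0 CPM (log2 change 0.18, SE 0.221, adjusted p = 0.603). Socs2, a feedback target of the same pathway, had 1 library apart in CD-LFD at 20.7, 18.0, 13.6 and 108 CPM and was not called (adjusted p = 0.878). Of the female-biased genes, 0 of 8 tested were called higher and 1 was called lower, against 14.6% and 9.14% of all genes. It was Sult1e1, the estrogen sulfotransferase, at 182, 95.1, 114 and 99.9 CPM and 22.8, 21.6 and 16.8 CPM (log2 change -2.59, SE 0.592, adjusted p = 0.00121). Of the growth hormone list, 17 were called without the library labelled CD-HFD replicate 1 and 14 without CD-HFD replicate 4.

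**Figure D4:**
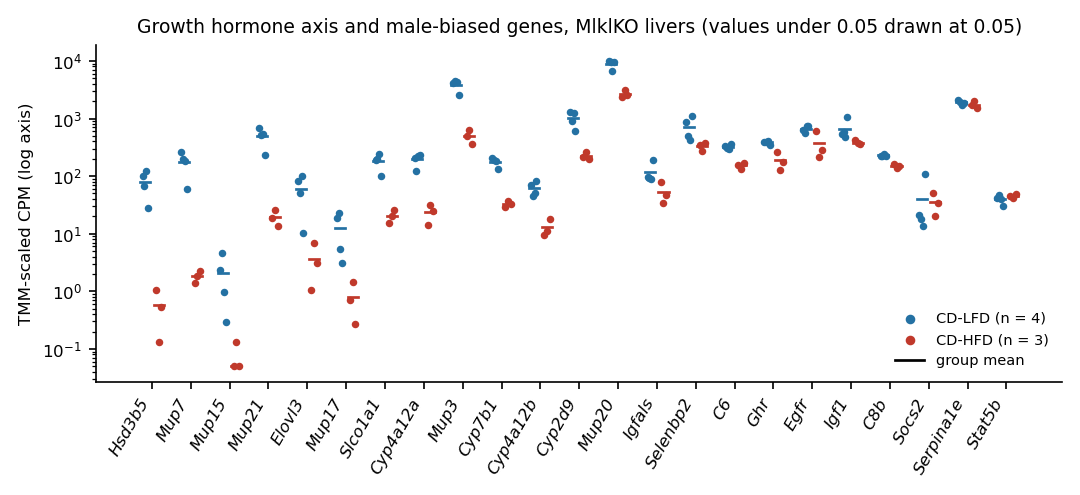
CPM (log axis, values under 0.05 drawn at 0.05) of the 23 growth hormone axis and male-biased genes in each CD-LFD (n = 4) and CD-HFD (n = 3) library of MlklKO mice, with group means as bars, ordered by log2 change. Hsd3b5 at one end has a mean 141 times higher on CD-LFD than on CD-HFD, and Stat5b at the other end, with a log2 change of 0.18, was not called.

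The major urinary protein genes lie in a cluster on chromosome 4 and are near copies of one another, so reads can be shared or lost among them and each value is uncertain for the single gene. As a family, 15 of the 17 that were tested fell and 0 rose, against 9.14% of all genes called lower. Mup7 was at 267, 201, 186 and 60.8 CPM on CD-LFD and 1.39, 1.82 and 2.26 CPM on CD-HFD, Mup21 was at 676, 509, 542 and 229 CPM and 18.4, 25.9 and 13.6 CPM, and the abundant Mup3 was at 4184, 4517, 4293 and 2549.7 CPM and 505, 641 and 366 CPM. The groups did not overlap in any of these 3, and CD-LFD replicate 4 was the lowest of its group in each. Mup21 had log2 change -4.66 (SE 0.423, adjusted p = 4.34e-10) and Mup3 -2.95 (SE 0.284, adjusted p = 1.39e-09). Mup20, which encodes the pheromone darcin, was the highest of the named family members on both diets, at 10054, 9712, 6699 and 9498 CPM and 2377, 3158 and 2609 CPM. To show how alike these genes are in front of their starts, 130 upstream bases of 4 of them are given (RefSeq, GRCm38.p6, minus strand read 5′ to 3′), with the longest string that all 4 share in capitals.
Mup3 (chr4:62087318-62087447): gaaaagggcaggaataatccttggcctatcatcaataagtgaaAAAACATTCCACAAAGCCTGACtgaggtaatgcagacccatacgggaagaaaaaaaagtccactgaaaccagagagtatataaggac
Mup11 (chr4:60662396-60662525): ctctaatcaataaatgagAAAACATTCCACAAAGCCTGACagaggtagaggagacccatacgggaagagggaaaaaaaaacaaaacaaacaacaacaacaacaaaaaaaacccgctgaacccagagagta
Mup14 (chr4:61303999-61304128): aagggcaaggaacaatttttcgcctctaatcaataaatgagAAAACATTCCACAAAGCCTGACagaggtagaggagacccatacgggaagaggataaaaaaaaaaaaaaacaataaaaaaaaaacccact
Mup21 (chr4:62150842-62150971): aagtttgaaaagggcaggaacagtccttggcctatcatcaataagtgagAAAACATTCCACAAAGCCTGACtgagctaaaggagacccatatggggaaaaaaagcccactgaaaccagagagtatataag
The shared string is 22 bases long and begins 87, 112, 89 and 81 bases upstream of the start in the order shown. It occurs in the 250 upstream bases of 10 of 27025 genes in the RefSeq promoter table (0.037%), and of the 11 tested Mup genes with a window in that table it was found in 8. It was defined from these 4 windows, so its presence in them is given and not a finding.

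Cytochrome P450 genes of families 1 to 3, the drug and steroid oxidising enzymes of the liver, had 12 of 19 tested members lower and 0 higher, against 9.14% of all genes called lower, with a median of -1.04. Cyp3a11, the main drug-metabolising P450 of mouse liver, was at 2497, 2184, 2544 and 1944 CPM on CD-LFD and 868, 817 and 852 CPM on CD-HFD (log2 change -1.44, SE 0.322, adjusted p = 0.000965). Cyp2c54 was at 133, 145, 177 and 135 CPM and 54.8, 38.3 and 18.5 CPM (log2 change -1.99, SE 0.345, adjusted p = 4.43e-05), and its near relatives Cyp2c37 and Cyp2c38, which can share reads with it, had log2 changes of -1.66 and -1.43. The count was 15 without the library labelled CD-HFD replicate 1, 9 without CD-HFD replicate 4 and 8 when libraries were scaled by total alone. Pericentral genes, expressed around the central vein where Wnt signalling is high, had 8 of 14 lower, against the same 9.14%. Glul, the glutamine synthetase of the innermost ring of hepatocytes, was at 1559, 1302, 1613 and 1546 CPM and 744, 448 and 751 CPM (log2 change -1.22, SE 0.233, adjusted p = 0.000166). Sp5, a direct Wnt target, was at 5.42, 5.36, 5.44 and 8.33 CPM and 2.61, 1.69 and 2.40 CPM (log2 change -1.46, SE 0.364, adjusted p = 0.00286), while the Wnt target Axin2 did not pass (log2 change -0.18, SE 0.323, adjusted p = 0.732). With libraries scaled by total alone 4 of the 14 were called. Periportal genes, from the other end of the lobule, had 2 of 12 lower (Igfals and Cyp2f2) and 1 higher, the E-cadherin gene Cdh1, at 85.7, 73.9 and 100.2 CPM on CD-HFD and 39.4, 31.5, 33.1 and 36.0 CPM on CD-LFD, against 9.14% of all genes called lower and 14.6% higher. Without CD-HFD replicate 4 this list had 1 lower and 0 higher, and scaled by library total 1 lower and 3 higher, so its balance of directions depends on the scaling.

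Bile acid synthesis and transport genes had 9 of 16 lower and 0 higher, against 9.14% of all genes called lower, with a median of -0.91, and scaled by library total 8 were lower and 1 higher. Cyp8b1, the sterol hydroxylase that sets the share of cholic acid, was at 291, 235, 472 and 209 CPM on CD-LFD and 81.5, 108 and 84.2 CPM on CD-HFD (log2 change -1.73, SE 0.438, adjusted p = 0.00333). Slc10a1, the sodium-dependent uptake transporter of bile salts, was at 305, 239.7, 432 and 316 CPM and 153, 138 and 102 CPM (log2 change -1.3, SE 0.389, adjusted p = 0.0121). Abcb11, the export pump, fell by 1.07 (SE 0.23, adjusted p = 0.000643). Cyp7a1, the rate-limiting enzyme of the classic pathway, was at 37.2, 25.6, 30.9 and 251 CPM on CD-LFD and 109, 10.8 and 77.1 CPM on CD-HFD with CD-LFD replicate 4 highest of the 7, and did not pass (adjusted p = 0.734).

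Genes that make new fatty acids fell in part. Of 17 de novo lipogenesis genes, 7 fell and 0 rose, against 9.14% of all genes called lower, with a median of -0.98. Scd1, the desaturase that makes oleate, was at 4047, 2424, 4342 and 1572 CPM on CD-LFD and 408, 85.5 and 222 CPM on CD-HFD, and 9887 ± 5234 CPM on the control diet (SD, n = 6). Its log2 change was -3.70 (SE 0.664, adjusted p = 7.01e-05), with the library labelled replicate 1 the highest of the CD-HFD group. Thrsp, a lipogenic regulator, was at 297, 231, 304 and 409 CPM and 73.5, 18.1 and 13.8 CPM (log2 change -3.15, SE 0.797, adjusted p = 0.00325). Fasn, the fatty acid synthase, was at 402, 304, 616 and 339.8 CPM and 216, 89.1 and 143 CPM (log2 change -1.48, SE 0.433, adjusted p = 0.0107). The groups did not overlap in these 3 genes, and CD-LFD replicate 4 was the lowest of its group for Scd1 but the highest for Thrsp. Acacb, Elovl6, Elovl5 and Mlxipl were also called, the last of them the gene of the carbohydrate-sensing factor ChREBP. Srebf1, the gene of the insulin-responsive lipogenic factor, overlapped between groups at 100.2, 76.3, 143 and 182 CPM and 138, 88.3 and 72.7 CPM (log2 change -0.33, SE 0.344, adjusted p = 0.521).

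Cholesterol synthesis and uptake genes depended on a single library. With all 7 libraries 1 of 21 was called lower (Nsdhl), against 9.14% of all genes, and 0 higher, with a median of -0.50, and without the library labelled CD-HFD replicate 1 the test called 10 lower. All 21 had their highest CD-HFD value in that library, against 34.4% of all genes tested. Scaled by library total alone, 3 were called higher and 0 lower, so the direction of the list depends on the scaling. Lipid droplet genes had 1 of 13 lower, below the 9.14% of all genes, namely Fitm1, a triglyceride-partitioning protein, at 38.4, 27.7, 24.7 and 43.4 CPM and 9.91, 12 and 11.8 CPM, and scaled by total alone 2 higher and 1 lower. Plin2, the coat protein of droplets in hepatocytes, was at 456, 498, 584 and 325 CPM and 424, 546 and 435 CPM (log2 change 0.01, SE 0.38, adjusted p = 0.992).

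Lipoprotein genes fell in part. Among 13 apolipoprotein and VLDL assembly genes 6 fell and 0 rose, against 9.14% of all genes called lower, with a median of -0.66, and 4 were called lower when scaled by library total. Apoa2 was at 8064, 8308, 7449.9 and 9264 CPM on CD-LFD and 2570.3, 3060.0 and 1698 CPM on CD-HFD (log2 change -1.76, SE 0.329, adjusted p = 0.000123), and the small apolipoproteins Apoc3 and Apoc1 fell by 1.73 and 1.65. Tm6sf2, which loads lipid onto VLDL, was at 33.5, 33.3, 39.6 and 44.5 CPM and 17, 13.4 and 9.85 CPM (log2 change -1.49, SE 0.259, adjusted p = 4.53e-05). Apob, the structural protein of VLDL, and Mttp, which lipidates it, had log2 changes of 0.09 and -0.42 and did not pass. In the pathway that choline feeds, 4 of 20 phosphatidylcholine and methionine cycle genes fell and 0 rose, against the same 9.14%. Pemt, which makes phosphatidylcholine without choline by methylating phosphatidylethanolamine, was at 355, 375, 377 and 411 CPM and 239, 198 and 147 CPM (log2 change -0.96, SE 0.198, adjusted p = 0.000381). Chpt1, Cept1 and Cbs were the other members called, the first 2 of them the last enzymes of the choline-dependent route. Pcyt1a, the rate-limiting enzyme of that route, was at 26.7, 26.9, 36.7 and 31.1 CPM and 65.9, 26.7 and 59.6 CPM and did not pass (adjusted p = 0.288). By library total alone this list had 3 called higher and 1 lower.

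Fatty acid oxidation and PPAR-alpha target genes had 4 of 19 lower, against 9.14% of all genes, with 1 lower without the library labelled CD-HFD replicate 1 and 2 without CD-HFD replicate 4. Scaled by library total, 1 was called lower and 1 higher. The called members included Fabp1 and the carnitine shuttle genes Cpt2 and Slc25a20. Cpt1a, the gated entry of fatty acids into mitochondria, was at 331, 359, 467 and 444 CPM and 573, 440.2 and 534 CPM (log2 change 0.37, SE 0.301, adjusted p = 0.403). Transcripts of the mitochondrial genome had 6 of 12 members lower, against 9.14% of all genes, and a median of -1.08. mt-Co1, a cytochrome c oxidase subunit, was at 20944, 15743, 19636 and 23568 CPM and 9552, 10078 and 8995 CPM (log2 change -1.07, SE 0.323, adjusted p = 0.0137). All mitochondrial transcripts together took 4.25% to 7.63% of reads on CD-LFD and 3.12% to 4.32% on CD-HFD, ranges that overlap. Of the 12, 1 was called without CD-HFD replicate 4, and 1 when libraries were scaled by total.

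Sugar metabolism genes moved in both directions, 6 of 18 higher and 4 lower against 14.6% and 9.14% of all genes, though without CD-HFD replicate 4 there were 5 higher and 1 lower, and 9 higher and 2 lower when libraries were scaled by total alone. Pkm, the pyruvate kinase of most non-hepatocyte tissues and of tumours, was at 139, 106 and 148 CPM on CD-HFD and 21.6, 30.9, 30.6 and 15.6 CPM on CD-LFD (log2 change 2.41, SE 0.245, adjusted p = 4.83e-09). Hk3 and Hk1, hexokinases of myeloid and other non-hepatocyte cells, rose by 2.01 and 1.85. G6pdx, the entry enzyme of the pentose phosphate pathway, was at 17.4, 25.1 and 21.8 CPM and 7.11, 5.36, 6.89 and 5.50 CPM (log2 change 1.78, SE 0.257, adjusted p = 3.04e-06). Among the hepatocyte forms, Pklr, the liver pyruvate kinase, fell by 1.53 (adjusted p = 0.0322), and Khk, which traps fructose, fell by 1.39. The Pklr call was lost without CD-HFD replicate 2, without CD-HFD replicate 4 and without CD-LFD replicate 3. Urea cycle and nitrogen handling genes had 4 of 11 lower (Glul, Otc, Nags and Asl), against 9.14% of all genes, and Otc was at 453, 437, 438 and 498 CPM and 282, 252 and 212 CPM (log2 change -0.88, SE 0.19, adjusted p = 0.000669).

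Calls in the stress response lists stand against 14.6% of all genes called higher and 9.14% called lower. Of 13 NRF2 targets 3 rose: Slc7a11, the cystine transporter, at 5.04, 3.26 and 10.6 CPM on CD-HFD and 0.508, 1.04, 0.801 and 1.04 CPM on CD-LFD, Hmox1, the haem oxygenase of macrophages and stressed cells, at 91.6, 73.6 and 105 CPM and 21.1, 31.4, 21.6 and 16.9 CPM, and Cbr3. Scaled by library total 5 NRF2 targets were called. Nqo1, a classic target in hepatocytes, did not pass (log2 change 0.30, SE 0.319, adjusted p = 0.53). Of 13 p53 targets 2 rose, Phlda3 and Zmat3, with 1 of them called without CD-HFD replicate 4 and 7 members called when scaled by library total. Cdkn1a, the cell cycle inhibitor p21, did not pass at 25.4, 35.3 and 28.7 CPM and 22.9, 17.6, 8.97 and 12.5 CPM (adjusted p = 0.129). Of 15 unfolded protein and integrated stress genes Atf3 rose and Atf4 fell, by 1.40 and -0.70 on the log2 scale. Neither was called without CD-HFD replicate 4, and 1 was called higher and 0 lower when scaled by library total. Immediate early genes, the AP-1 family among them, had 0 of 8 called by edgeR, 1 at an unadjusted p under 0.05, 1 called by DESeq2, 1 by limma-voom and 4 higher when scaled by library total. Clock genes had 1 of 17 called lower, Nfil3, a call lost under 5 of 15 alternatives, among them leaving out CD-HFD replicate 4 and scaling by library total. Of the 17, 6 were lower without overlap and 0 higher, against 16.7% of all genes lower without overlap. Their summed level was 861.5 to 984.58 CPM on CD-HFD and 1163.1 to 1356.3 CPM on CD-LFD, ranges that do not overlap.

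Markers of tissues other than liver were also summed. Of the adipocyte genes Adipoq, Lep, Retn and Plin1 had 0 counts in all 7 libraries, and Cfd, the 1 member tested, was at 0.174, 0.261 and 0.133 CPM on CD-HFD and 0.423, 0.446, 0.480 and 0.892 CPM on CD-LFD. Pancreatic acinar genes summed to 7.32 to 11.3 CPM on CD-HFD and 10.1 to 19.5 CPM on CD-LFD. Of these Pnlip, Prss2 and Cel had 0 counts in all 7 libraries, and Cela1, the 1 member tested, was at 10.8, 9.64 and 6.92 CPM and 12.4, 17.9, 18.9 and 9.07 CPM (log2 change -0.67, SE 0.287, adjusted p = 0.0818). Mesothelial genes summed to 2.09 to 4.66 CPM on CD-HFD and 1.49 to 3.89 CPM on CD-LFD, with 0 of 2 tested called by edgeR, DESeq2 or limma-voom and 0 at an unadjusted p under 0.05. Erythroid genes had 0 of 5 called by any of these tools and 1 at an unadjusted p under 0.05, at 106 to 112 CPM on CD-HFD and 99.9 to 272 CPM on CD-LFD.

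Single calls also turned on single libraries. Of 209 called genes in these lists and among the largest changes, 22 lost their call without the library labelled CD-HFD replicate 1, those named here being Cdh5, Esm1, Ccl22, Ifit2, Lcn2, Mlkl, Gsdme, Cbr3, Cpt2, Slc25a20, Asl and Ccl2. Without CD-HFD replicate 2, 38 were lost, among them S100a8, S100a9, Pdcd1, Thy1, Stab1, H2-DMb1, H2-Ab1, Cxcl14, Oasl2, Lcn2, Birc3, Pycard, Casp1, Akr1c18, Atf4, Elovl6, Cbs, Cyp2f2, Nfil3, Dcn, Sox9, Alb, Ccl2, Gpc3, Fasn, Elovl5 and Pklr. Without CD-HFD replicate 4, 55 were lost, among them Mup17, Pdcd1, Cd4, Cxcr6, Thy1, Stab1, Esm1, H2-DMb1, H2-Ab1, Ccl22, Ifit2, Oasl2, Lcn2, Tnfaip3, Pycard, Casp1, Gsdme, Ccnb1, Zmat3, Atf3, Atf4, Elovl6, Slc25a20, Cbs, Slc10a1, Cdh1, Cyp2f2, Asl, Nfil3, Dcn, Alb, Ccl2, Gpc3, Elovl5, Igf1, Pklr and mt-Co1. With 1 CD-LFD library left out, in the order of replicates 1 to 4, 19, 21, 25 and 32 were lost. By edgeR, the adjusted p of the calls lost ran from 0.05 to 0.842 over these 7 fits.

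**Figure D5:**
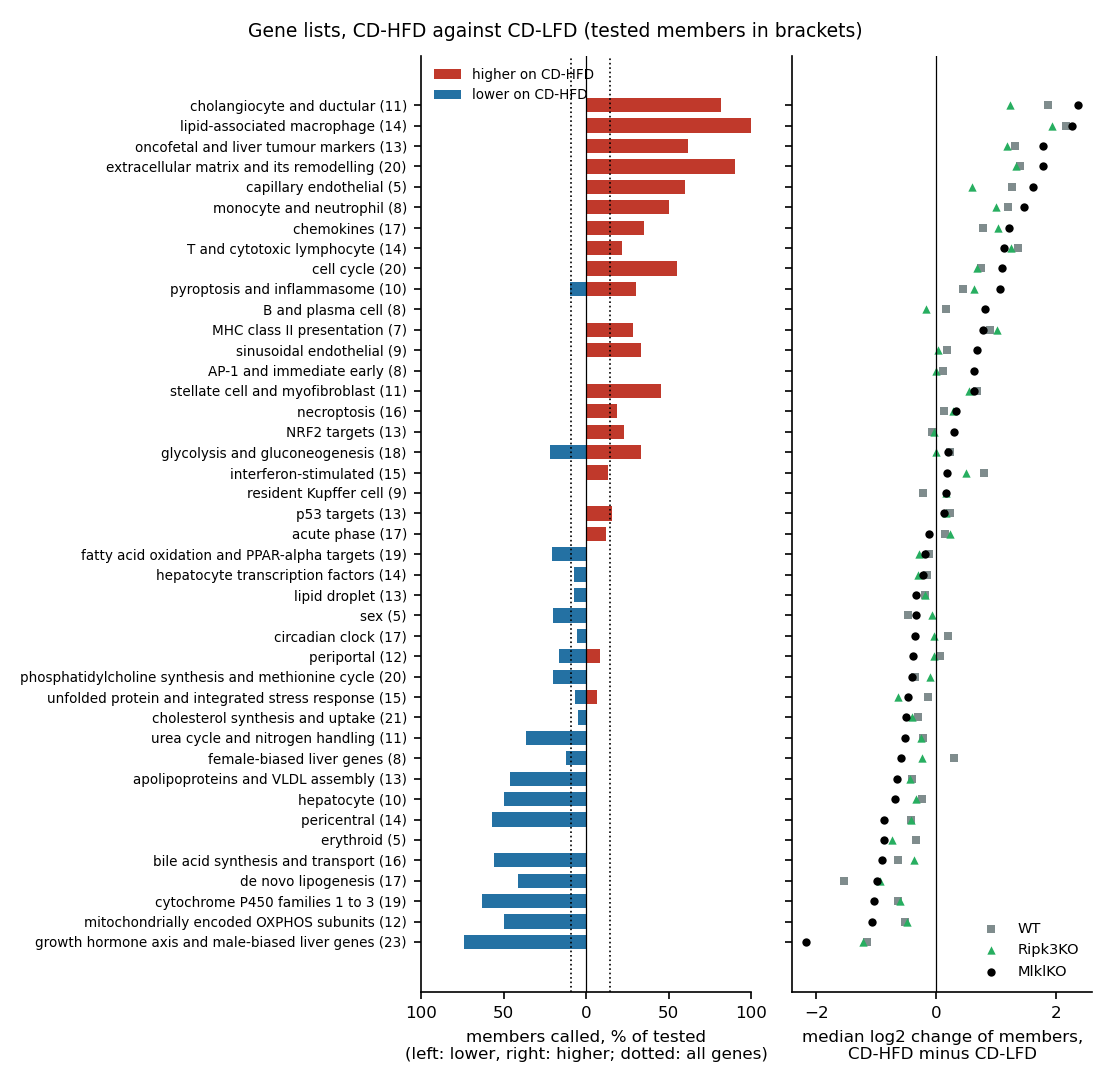
Gene lists with at least 5 tested members (number in brackets), ordered by median log2 change in MlklKO mice. Left, the percent of tested members called higher (right of 0) or lower (left of 0), with dotted lines at the share of all genes, 14.6% higher and 9.14% lower. Right, the median log2 change, CD-HFD minus CD-LFD, in MlklKO, WT and Ripk3KO mice. Ductular, macrophage, oncofetal and matrix lists stand at the top, and the growth hormone list stands lowest at -2.17.

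The same contrast in the other genotypes shares no library with the Mlkl knockout comparison. In WT mice (6 CD-HFD and 6 CD-LFD) 3140 genes were called, 21.1% of those tested, and in Ripk3 knockout mice (4 and 3) 1312, or 8.83%. Ripk3 knockout CD-LFD replicate 3 had Xist at 10.9 CPM, against 0 and 0.421 CPM in replicates 1 and 2. WT CD-LFD replicate 3 held 88204703 counts, the most in the series. The effect of these libraries on the counts of calls was not tested. Of the 3523 genes called in Mlkl knockout mice 2045 were called in the same direction in WT, 58.0% of the Mlkl knockout calls and 65.1% of the WT calls, and 2, A930033H14Rik and Ttll8, in the opposite direction. With Ripk3 knockout mice 1145 were shared, 32.5% of the Mlkl knockout calls and 87.3% of the Ripk3 knockout calls. Across genes the log2 changes correlated at r = 0.785 with WT and 0.775 with Ripk3 knockout, a description over 14862 genes that are not independent replicates. The shared calls and correlations include the library labelled CD-HFD replicate 1, and values without it are not given. Over the genes called in Mlkl knockout mice the median size of the log2 change was 1.24 there, 0.747 in WT and 0.763 in Ripk3 knockout mice, but genes picked for passing the test in 1 comparison are favoured to be larger in it.

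Few genes were shown to respond differently between genotypes. A test of the difference between the diet change in Mlkl knockout mice and that in WT mice called 0 genes in edgeR (smallest adjusted p = 0.132), with 1192 genes, 8.02%, at an unadjusted p under 0.05. DESeq2 called 2, Mup21 and A930033H14Rik, and limma-voom 0. Against Ripk3 knockout mice edgeR called 0 (smallest adjusted p = 0.539), with 424 genes, 2.85%, at an unadjusted p under 0.05, and DESeq2 called 2, Mir6236 and Gm15564, and limma-voom 0. These 4 genes and Ttll8 were named after their values were seen. With 0.0% of genes called in edgeR in either test, neither a difference nor a likeness in response is shown for the genes above. Mmp12 rose by 3.66 in Mlkl knockout, 3.76 in WT and 3.63 in Ripk3 knockout mice, and the difference from WT was -0.10 (SE 0.368, adjusted p = 0.972). Gpnmb had log2 changes of 3.49, 2.93 and 3.26 in the same order. Col1a1 had 2.36, 2.00 and 1.78, and Epcam 2.66, 2.06 and 1.37. Mup21 had a log2 change of -4.66 in Mlkl knockout, -2.54 in WT and -3.62 in Ripk3 knockout mice. Its difference from WT was -2.12 (SE 0.451, adjusted p = 0.201 in edgeR and 0.019 in DESeq2). Over the growth hormone list the median was -2.17 in Mlkl knockout, -1.15 in WT and -1.21 in Ripk3 knockout mice, while over the lipid-associated macrophage list it was 2.26, 2.18 and 1.94. WT mice differ in a further way: their Arntl to Dbp log2 ratio was -2.63 to -0.27 on CD-LFD and -6.05 to -2.09 on CD-HFD, ranges that overlapped through 1 CD-HFD library (replicate 3, at -2.09), whereas in Ripk3 knockout mice it was -7.06 to -5.91 and -6.07 to -5.42.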

How the data were processed

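RNA sequencing counts of mouse liver were used. The authors deposited 1 table of unnormalised counts, with Ensembl genes in lines and 44 libraries in columns. FastQC, STAR, HTSeq, edgeR, limma and the build GRCm39 are named per the submitters' processing notes, with no versions. Libraries came from a kit that keeps strand, per the labels' protocols, and the strand setting of the counting is not given in the sources used here. Of 35249 gene identifiers, 34373 matched a symbol, and the other 876 held 0.0838% of counts.

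Groups were genotype and diet from the labels, and 9 group means were fitted to all 44 libraries with edgeR 4.0.16 (TMM scaling, filterByExpr with a minimum count of 10, quasi-likelihood F test) in R 4.3.3, with Benjamini-Hochberg adjustment over the 14862 genes tested (99.8% of counts) and a threshold of 0.05. Estimating the spread from all groups assumes that they vary alike. Differences between genotypes were tested as interaction contrasts in the same fit. Alternatives were DESeq2 1.42.0, limma-voom (limma 3.58.1), RLE size factors, scaling by library total, no count filter, a robust fit, a fit of only the groups compared, a replicate block and each of the 7 libraries left out. The scripts were tested on simulated counts. Upstream sequences came from RefSeq tables on GRCm38.p6. Depth was 4983234 to 12471844 reads per library, so low genes rest on few reads. Reads shared between near-identical genes (Mup, Saa1 and Saa2, Cyp4a12a and Cyp4a12b, Serpina1, Cyp2c) leave single values uncertain.

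The libraries and the gene lists were chosen with earlier results of these data known, so no list is independent support. Genes were named by rule: the 12 largest rises and 12 largest falls among called genes with a mean log2 CPM of at least 1, no overlap between groups and no predicted-gene symbol, up to 4 called members of each list with the largest change (or the largest where none was called), and Mlkl and Ripk3. Other list members named in the text were chosen after their values were seen. The values of some genes that this rule names are not reported here.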

Additional observations from a re-analysis of the deposited data

Results flagged for a closer look

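In 9 of 144 quantities tested over the 4 CD-LFD libraries of Mlkl knockout mice, 1 library lay far from the other 3. Chance alone gives about 1 such case in 20, a share close to the one found. Cyp7a1 and Socs2, in which CD-LFD replicate 4 also stood apart, are not among the 9. CD-LFD replicate 4 was the distant library in 5 of the 9. It was highest for Igfals, the carrier of circulating IGF1, at 187 CPM against 87.7 to 97.6 CPM in the others, for the bile acid receptor Nr1h4 at 216 CPM against 147 to 153 CPM, for the Wnt target Sp5 at 8.33 CPM against 5.36 to 5.44 CPM, and for Cfd, the complement factor D gene, at 0.892 CPM against 0.423 to 0.480 CPM. It was lowest for the T cell chemokine receptor gene Cxcr6 at 0.446 CPM against 0.893 to 0.961 CPM. CD-LFD replicate 2 was high for the pericyte gene Rgs5 at 26.5 CPM against 12.3 to 14.3 CPM and low for Cyp1a2 at 519.7 CPM against 638 to 655 CPM. CD-LFD replicate 1 was high for the interferon-stimulated Ifit2 at 8.47 CPM against 6.24 to 6.57 CPM, and it was also the deepest library, with a total of 12471844 counts against 6660141 to 7384632.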

How the results depend on the processing

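The count of 3523 genes called between the diets was 2781 to 5158 under 8 changes of tool, scaling, filter or design, and 1935 to 3154 with 1 library left out, the lowest without CD-HFD replicate 4. The differences from WT and from Ripk3 knockout mice stayed at 0 calls with each of the 7 libraries labelled Mlkl knockout on these diets left out in turn (0 to 0), while no WT or Ripk3 knockout library was left out. The difference from WT gave 2 calls with DESeq2 and 2 with no count filter, and the difference from Ripk3 knockout mice gave 2 with DESeq2, 4 with no count filter and 2 with only the groups compared. The cause was not tested. Of the 132 named genes that were called, 83 kept their call under every one of the 15 alternatives, 49 lost it under at least 1, and 0 reversed direction. Replicate numbers did not pair the samples: deviations of same-numbered libraries correlated at -0.145 to -0.0762 over 3 pairs. With the replicate number as a block, 2896 genes were called between the diets and 0 for either difference between genotypes. With 3 and 4 libraries, differences in genes of under 1 CPM could not be resolved well.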
